A study of Mus musculus with 16 samples.

Results

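Of the 12658 circRNA entries measured in plasma extracellular vesicles (pEVs), 134 rose and fell across libraries with a tRNA or a miRNA so closely that the pair had a Pearson r of at least 0.99. An entry was taken when its mean over the 16 libraries was at least 10 normalized counts and when it reached that r, on the deposited values without a log, with any tRNA or miRNA entry whose own mean was also at least 10. The partner is called its twin here, and the best twin is the one with the highest r. The 134 were 7.42% of the 1805 circRNA entries with a mean of at least 10, and 581 entries (288 tRNAs and 293 miRNAs) could serve as twins. A set of 7 entries (circ_0012885, circ_0016157, circ_0016160, circ_0005066, circ_0002523, circ_0008624 and circ_0008625) was left out by name, and 4 of these would otherwise have met the rule. Because the members were selected on these correlations, every r below describes the selection and carries no test.

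The plasma came from 8 PS19 mice and 8 wild-type (WT) mice of about 9.6 months, with 200 µL of plasma and 1 small RNA library for each mouse, and with males and females in equal number in both groups. The PS19 mice (PS19+/-) were heterozygous for a human tau transgene with the P301S change, driven by the murine prion protein promoter, on a mixed C57BL/6 and C3H background. The WT mice were littermates without the transgene, and the labels name no treatment. Vesicles were precipitated from plasma, which does not separate them by cell of origin. The libraries held between 36220722 and 117583663 assigned reads, summed over all entries, and 1 read was worth between 0.389 and 3.83 normalized counts.

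A circRNA is made when a downstream splice site is joined back to an upstream one, and the read across that junction is what sets it apart from a linear RNA. A mature miRNA is cut from a hairpin, often inside the intron of a host gene, and a tRNA can be cut into fragments of similar size. A short read from such a small RNA that lies within the span of a circRNA matches both annotations by position. Whether the reads counted here crossed a junction was not tested, and circRNA positions and host genes were not analysed here.

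The mature miRNAs that stayed twins without the highest library, and miR-98-5p, which is no twin but is used in a sum further on, are shown for their place in host genes and for the seed, bases 2 to 8, in capitals. The sequences are from RefSeq on GRCm38.p6, and 9 of the 13 miRNA best twins matched a mature sequence there. miR-103-3p and miR-107-3p share a seed and differ at 1 base (G22C, counted from the 5′ end), and let-7f-5p and miR-98-5p share a seed and differ at 3 (G11A, A12G and A19U).
let-7f-5p: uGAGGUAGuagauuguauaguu
miR-98-5p: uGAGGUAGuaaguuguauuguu
miR-10b-5p: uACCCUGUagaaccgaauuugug
miR-128-3p: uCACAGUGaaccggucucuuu
miR-744-5p: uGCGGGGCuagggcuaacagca
miR-103-3p: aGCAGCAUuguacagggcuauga
miR-107-3p: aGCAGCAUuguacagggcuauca
miR-770-3p: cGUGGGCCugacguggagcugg
The hairpin of miR-361 is given whole, with both mature arms in capitals, because the reads of 1 circRNA entry, circ_0016081, differed by 3 of 6421 from the sum of its arms.
Mir361 (chrX:113074824-113074893, minus strand): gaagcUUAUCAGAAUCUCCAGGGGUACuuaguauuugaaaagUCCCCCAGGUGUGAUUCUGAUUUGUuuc

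Most of these miRNAs lie inside other genes. By the GENCODE annotation of GRCm38, introns on the same strand hold miR-128-3p (R3hdm1, chr1:128202404-128202424, and Arpp21, chr9:112118644-112118664), miR-744-5p (Map2k4, chr11:65734799-65734820) and miR-361-3p (Chm, chrX:113074827-113074851). The kinase genes Pank3 (chr11:35782447-35782469) and Pank2 (chr2:131288103-131288125) hold the 2 copies of miR-103-3p in introns, and Pank1 (chr19:34820700-34820722) holds miR-107-3p. miR-10b-5p lies in introns of Hoxd3 and Hoxd4 (chr2:74726074-74726096), among the genes that pattern the body axis. miR-770-3p lies in an exon of Meg3, an imprinted long non-coding RNA (chr12:109563744-109563765). One copy of let-7f-5p lies in an intron of the ubiquitin ligase gene Huwe1 (chrX:151912353-151912374), as does miR-98-5p (chrX:151913229-151913250), with 786 bases between the hairpins, and the other in an exon of the long non-coding RNA 6720427I07Rik (chr13:48537889-48537910).

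The 134 entries fell into 2 patterns once the library in which each was highest was set aside. For 18 entries, r with the same best twin stayed at 0.99 or above over the other 15 libraries, with a lowest value of 0.991. For the other 116, it fell under 0.99, with a median of 0.768 and a lowest value of -0.22. The highest library held between 11.2% and 28.4% of the summed normalized counts of the 18 entries, and between 36.1% and 99.4% of those of the 116. This split was made after the values were seen. Over all 134, 114 (85.1%) had over 50% of their sum in 1 library, whereas 153 (9.18%) of the 1667 entries without a twin did. An r without a log can be carried by 1 high library. The rule thus favours such entries, and the contrast is in part built into the selection.

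**Figure D1:**
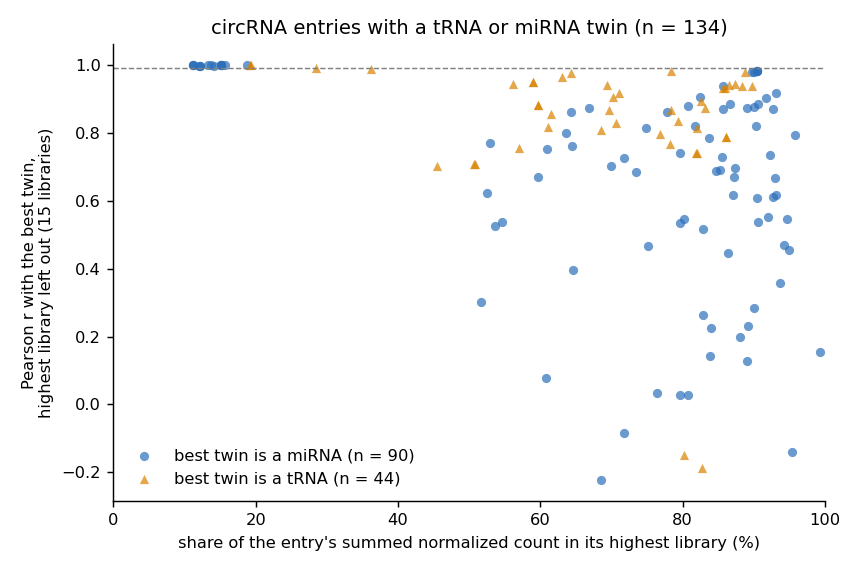
Each point is 1 of the 134 circRNA entries, with the share of its summed normalized count in its highest library on the x axis (%) and Pearson r with the best twin over the remaining 15 libraries on the y axis; the dashed line is 0.99. The 18 entries on or above the line have shares up to 28.4%, and the entries with shares above 50% lie below it.

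The 18 entries followed 8 miRNAs and 2 tRNA genes: let-7f-5p (1 entry), miR-10b-5p (1), miR-128-3p (4), miR-744-5p (3), miR-107-3p (3), miR-361-3p (1), miR-103-3p (1), miR-770-3p (1) and 2 genes of tRNA-Ala (3). Of the 18, 16 had exactly 1 twin among the 581 candidates, and 0 had twins of more than 1 miRNA number or amino acid. The r of all 18 was at least 0.99 in the WT libraries alone, and that of 17 in the PS19 libraries alone.

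The largest was circ_0016169, which followed let-7f-5p, a member of the let-7 family that holds back growth genes. Its normalized counts ran from 2125 to 19719 in PS19, with a median of 11970, and from 7157 to 30058 in WT, with a median of 10337. Its 246903 reads stood against 244029 of let-7f-5p, and r was 0.99998. The circRNA entry had more reads than the miRNA in all 16 libraries, between 1006 and 1023 for every 1000 of let-7f-5p.

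circ_0010180 had the highest r of all, 0.99999, with miR-10b-5p. It held 66735 reads and the miRNA 66588, and its normalized counts ran from 191.7 to 7329 in PS19, with a median of 2146, and from 1515 to 6473 in WT, with a median of 3345. PS19 replicate 1, with 247 reads of each, was the library in which both counts were the same. The ratio per 1000 reads of the miRNA stayed between 1000 and 1020.

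Of the 4 entries that followed miR-128-3p, a miRNA abundant in neurons, 3 (circ_0000075, circ_0008145 and circ_0008146) had identical reads in every library, and circ_0008144 differed from them by 9 reads in all. The normalized counts of circ_0008144 ran from 733.7 to 6608 in PS19, with a median of 2424, and from 1779 to 7177 in WT, with a median of 3043. Unlike the entries above, it held fewer reads than its twin in all 16 libraries, 53322 against 56869, or between 891 and 965 per 1000 reads of miR-128-3p. The plot of reads against reads shows this pair just under the diagonal and the other pairs on or just above it.

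**Figure D2:**
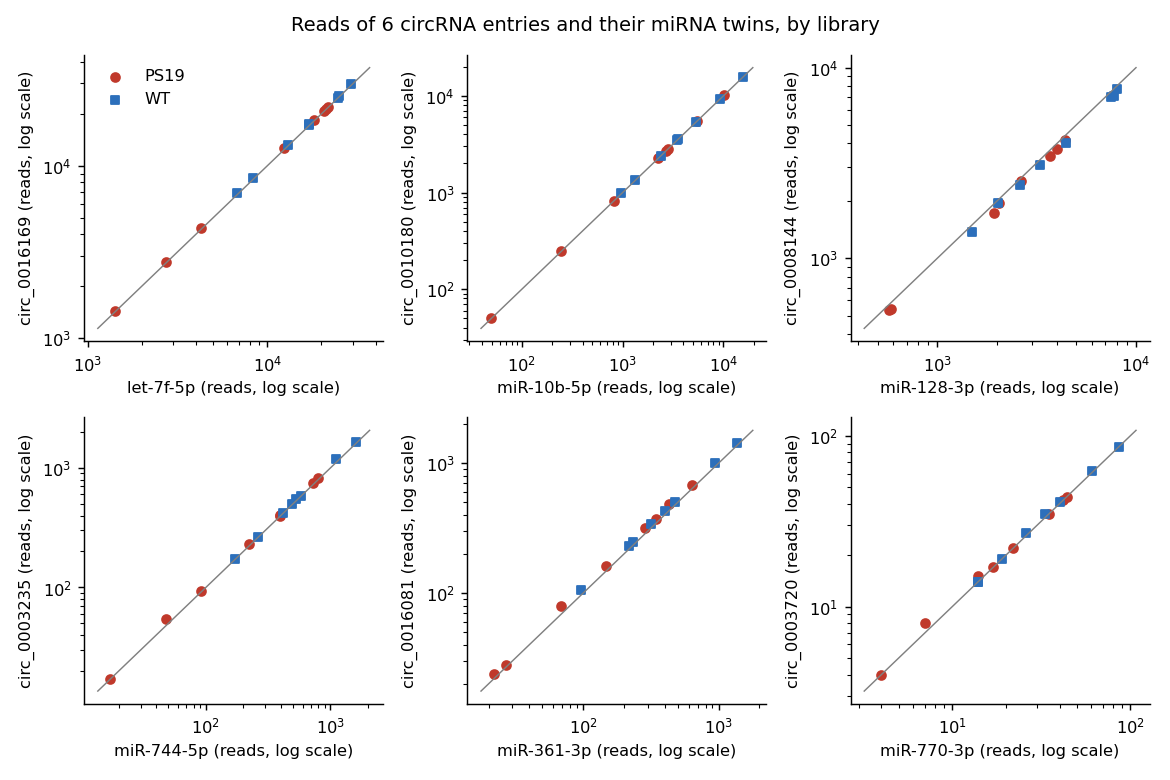
Reads of 6 circRNA entries (y axis, log scale) against reads of their best miRNA twins (x axis, log scale), with 1 point per library (PS19 circles, WT squares) and the line of equal reads in gray. Points lie along the line in both genotypes, and circ_0008144 lies below miR-128-3p in all 16 libraries.

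The 3 entries of miR-744-5p (circ_0003234, circ_0003235 and circ_0003236) had 7920, 8091 and 7989 reads, against 7835 of the miRNA. The 3 of miR-107-3p had 859 (circ_0007709) or 847 reads (circ_0007710 and circ_0007711, identical to each other), against 819. circ_0002999 had 2091 reads against 2056 of miR-103-3p, and circ_0003720 had 485 against 478 of miR-770-3p. miR-103-3p and miR-107-3p differ by 1 base, and each circRNA entry had a single twin, so that circ_0002999 reached 0.99 with the first alone and the circ_0007709 set with the second alone.

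The tRNA twins of this kind were genes of tRNA-Ala, which carries alanine to the ribosome. circ_0003413 and circ_0003415 had 1136 and 1121 reads against 1103 of tRNA-Ala-TGC-8-1, and equalled or exceeded it in all 16 libraries. circ_0014158 followed tRNA-Ala-TGC-6-1 less evenly, with between 167 and 1077 reads per 1000 of its twin. Its coefficient of variation, 32.8%, was the largest of the 18, and it was the one entry with an r under 0.99 on the log2 scale (0.97). For the other 17, the coefficient of variation of the ratio was below 10% (0.478% for circ_0016169 and 2.70% for circ_0016081), which restates the selection on r.

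Of the 18, 13 held more reads in all than their twin, and the surplus of each was set beside all 15159 entries, an addition made after the values were seen. The closest entry was a miRNA entry for 4 of them, described next, and another circRNA entry for 9. circ_0016081 had 6421 reads and miR-361-3p 6005. The 416 reads of surplus were closest to miR-361-5p, the other arm of the same hairpin, with 3 reads of difference summed over the 16 libraries, and the next closest entry was 116 reads away. With both arms and the hairpin entry (mir-361) added, the sum was 6420 reads and equalled circ_0016081 in 15 of 16 libraries. The surplus of circ_0003720 over miR-770-3p, 7 reads, was likewise closest to the other arm, miR-770-5p (2 reads apart), though the circRNA entry circ_0007004 was only 3 reads apart. For circ_0010180, the sum of miR-10b-5p, miR-10b-3p and the mir-10b hairpin entry came to 66723 of its 66735 reads and equalled it in 8 libraries. For circ_0003234 it did not come as near, as miR-744-5p, miR-744-3p and the mir-744 hairpin entry together left 71 of its 85 surplus reads and equalled it in 5 libraries.

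**Figure D3:**
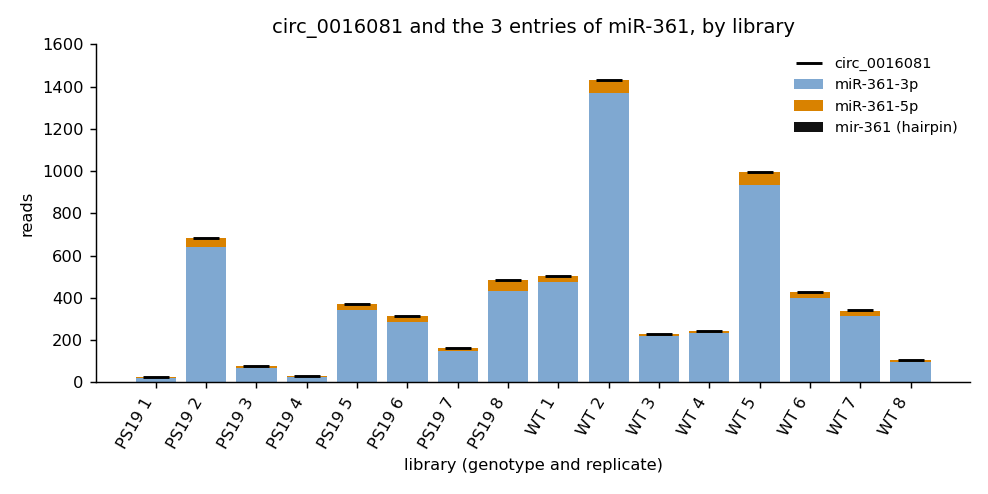
Stacked bars give the reads of miR-361-3p, miR-361-5p and the mir-361 hairpin entry in each of the 16 libraries, and the black dash the reads of circ_0016081. The dash sits on top of the stack throughout, and the 2 differ in 1 library.

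For circ_0016169 the surplus over let-7f-5p was 2874 reads, between 21 and 446 in a library. Among all entries it was closest to miR-98-5p, with 316 reads of difference in all, and the next closest entry was 669 reads away. miR-98-5p is the other let-7 family miRNA in the intron of Huwe1 described above. The sum of the 2 miRNAs was 246869 reads, but no library had an exact match, and the differences ran from -42 to 130 reads.

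The other pattern belonged to PS19 replicate 3. Of the 134 entries, 111 (82.8%) were highest in that library, as were 220 (13.2%) of the 1667 entries without a twin. This contrast too is in part built into a rule that favours entries high in 1 library. The summed normalized counts of the 111 were 146912 in PS19 replicate 3. They were between 690.1 and 5857 in the other 7 PS19 libraries (median 3214) and between 565.4 and 1682 in the 8 WT libraries (median 780.7). The other PS19 libraries thus overlapped the WT range at their lower end and exceeded it at their upper end. In reads, 107120 of 137428 came from PS19 replicate 3. Without that library, 110 of the 111 fell under an r of 0.99, with a median of 0.783, and for 62 of them the mean of the other 15 libraries was under 10 normalized counts. The whole set of 134 took 48.5% of the circRNA reads of PS19 replicate 3, against between 3.28% and 40.0% in the other libraries. The 116 entries that lost their twin took 44.9% there and at most 2.53% elsewhere. These totals and shares are sums over entries. Entries with identical reads, such as circ_0007381 and circ_0007382 (9991 each), were each added. The sums therefore cannot be taken as counts of separate reads.

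PS19 replicate 3 also stood apart in other RNA. Its summed red blood cell miRNAs (miR-451a, both arms of miR-144, miR-486a-5p and miR-486b-5p, 5 of 5 found) came to 8718 normalized counts, where the PS19 libraries ran from 3129 to 86204, with a median of 62495, and the WT libraries from 33221 to 182419, with a median of 73668. Its summed liver miRNAs (miR-122-5p and miR-192-5p) were the lowest of all 16 libraries, at 8373, and so were its neuronal ones (miR-124-3p, miR-9-5p and miR-128-3p), at 980.6. Its platelet and myeloid miRNAs (miR-223-3p and miR-126a-3p), at 1632, lay within the PS19 range of 540.8 to 2239. In such bulk RNA, fewer vesicles of a source and less RNA per vesicle cannot be told apart. The part of these differences in the 111 entries was not tested.

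In this pattern a circRNA entry had many twins. The median was 8 twins, 102 of the 111 had twins of more than 1 miRNA number or amino acid, and over all members 96 had both tRNA and miRNA twins. When members were joined wherever 2 of them had an r of at least 0.99, 110 fell into a single group with best twins of 6 kinds. Their levels were not alike, with 18478 normalized counts for circ_0011099 and 134 for circ_0001166 in PS19 replicate 3. By best twin, the largest groups were miR-5112 (52 entries), tRNA-Cys (23), miR-5108 (18), tRNA-Ile (10) and tRNA-Ala (7, with the 3 above).

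circ_0011099 had the highest mean in the miR-5112 group. It had 18478 normalized counts in PS19 replicate 3, which came from 13473 of its 14512 reads. The other PS19 libraries went down to 15.7 and the PS19 median was 110, whereas WT ran from 18.5 to 45.7 (median 34.0), so the groups overlapped. Its best twin miR-5112 had 130 reads, 114 of them in PS19 replicate 3 and 0 in all 8 WT libraries, which allows up to 3 reads in each. The circRNA entry held 36000 reads per 1000 of its twin at the median of the 5 libraries with twin reads, and between 17500 and 118184 among them. circ_0004037 (12848 normalized counts in PS19 replicate 3, 11364 reads in all) and circ_0005019 (7842 and 6316) were likewise highest in that library. The next highest library differed, being PS19 replicate 1 for circ_0011099, PS19 replicate 8 for circ_0004037 and PS19 replicate 4 for circ_0005019.

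In the tRNA-Cys group the twin was tRNA-Cys-GCA-15-1, with 375 of its 468 reads in PS19 replicate 3. The highest mean was that of circ_0006570, with 1946 normalized counts in that library, a PS19 median of 12.3 and a lowest value of 0. WT ran from 0 to 10.5 (median 1.48). circ_0005119 and circ_0005116 reached 1662 and 1673 in PS19 replicate 3, and their next highest library was PS19 replicate 7 with 107 each. PS19 replicate 7 was second for 43 of the 111 entries, PS19 replicate 1 for 28 and PS19 replicate 8 for 17.

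The miR-5108 group was less concentrated. circ_0002516 had 614.4 normalized counts in PS19 replicate 3, 17.6 in the lowest PS19 library and a PS19 median of 37.3, against 16.6 to 57.9 in WT (median 25.6). PS19 replicate 3 held 448 of its 1069 reads, while it held 2027 of the 3012 reads of the twin entry mir-5108. Its reads per 1000 of the twin ran from 208 to 6333, so the r of 0.996 did not come with a steady ratio. circ_0002519 (602.1 in PS19 replicate 3) and circ_0008373 (526.6) were the next of this group by mean.

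The tRNA-Ile entry with the highest mean, circ_0013556, had 784.5 normalized counts in PS19 replicate 3 and 145 in PS19 replicate 1, its next highest library. Its median was 19.4 in PS19 and 19.7 in WT, and WT ran from 5.35 to 46.9. The tRNA-Ala entry circ_0007381 had 11494 in PS19 replicate 3 and 931.7 in PS19 replicate 1, with medians of 145 and 29.4. It held 9991 reads, whereas its best twin tRNA-Ala-TGC-5-1 held 198.

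**Figure D4:**
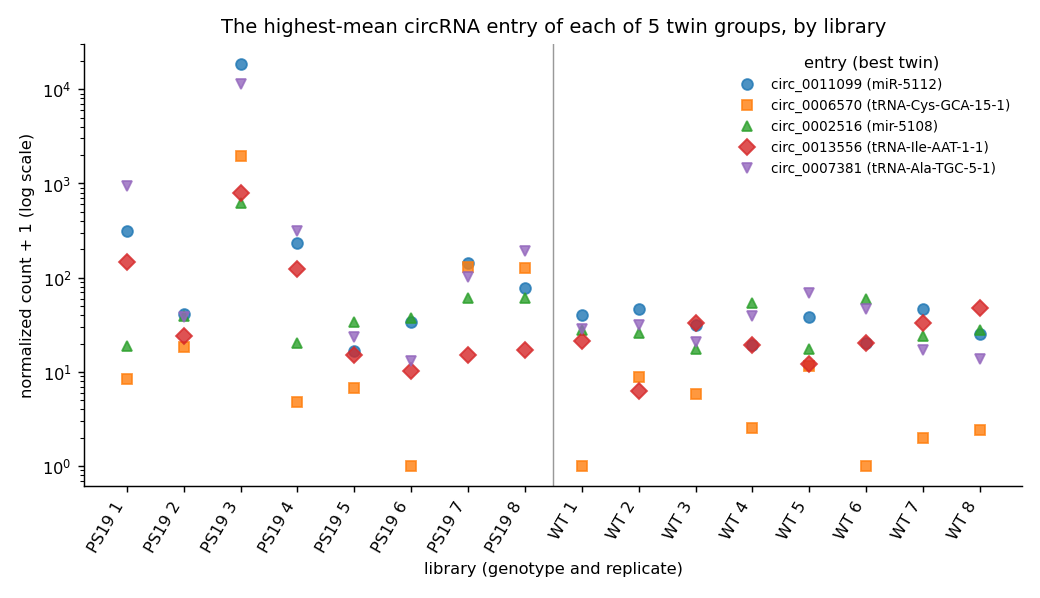
Normalized count + 1 (y axis, log scale) in each library (x axis, PS19 left of the line and WT right) of the highest-mean circRNA entry of 5 twin groups, with the best twin in brackets. All 5 are highest in PS19 replicate 3, from 614.4 (circ_0002516) to 18478 (circ_0011099), and in the other libraries they overlap between genotypes.

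A few entries were highest in 1 other library. circ_0005056 and circ_0005057 followed miR-8109 through WT replicate 4, with 168 of the 283 reads of circ_0005056 and 2371 of the 2569 reads of miR-8109. Without that library, r was -0.08 and 0.03. circ_0001494, of the tRNA-Val group, had 214.8 normalized counts in PS19 replicate 4 from 56 reads, since 1 read was worth 3.83 there. In that library tRNA-Val-AAC-5-1 had 1288 of its 1624 reads. PS19 replicate 4 was also highest for the single entries of tRNA-Thr (circ_0013607) and tRNA-iMet (circ_0016293). The 3 entries of the miR-7050 group belonged with those of PS19 replicate 3, and circ_0013521 reached 238.6 normalized counts there, against 5.21 to 24.1 in WT.

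Entries just inside the threshold were circ_0008469 (r = 0.9907, tRNA-Cys-GCA-15-1), circ_0008470 (0.9905, the same twin) and circ_0002976 (0.9901, mir-5108), the lowest of the 134. Just outside lay circ_0008468 (0.9898, mir-5112), circ_0015929 (0.9893, miR-148a-3p) and circ_0008248 (0.9891, miR-5112). Entry numbers of 58 members (43.3%) were next to that of another member, and the same was true of 54.5% of the entries without a twin.

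PS19 was then compared with WT. With limma on log2(normalized count + 1), 59 of the 134 entries had a raw p under 0.05 (44.0%), against 10.9% of the 1805 circRNA entries with a mean of at least 10 and 4.85% of all ncRNAs. Of the 59, 56 were higher in PS19 (41.8% of the 134, against 9.31% of the 1805 and 2.72% of all ncRNAs). The count depended on scaling, with 30 called with library totals and 75 with size factors from miRNAs only, all higher in PS19. Over all 15159 ncRNAs, 441 were called with library totals (145 higher in PS19) and 895 with the miRNA factors (767 higher). With the deposited scaling, 735 were called (412 higher). The count of members was between 32 and 37 without any 1 WT library. The median log2 fold change was 1.43 over the 134 and -0.01 over all ncRNAs. Entries that share the height of 1 PS19 library are not separate evidence, and those that met the minimum mean through that library were selected to be high there, so the counts describe the set. Put the other way, the 134 gave 56 of the 168 circRNA entries of this level called higher in PS19 (33.3%).

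After Benjamini-Hochberg adjustment over all 15159 ncRNAs, limma gave 0 of the 134 an adjusted p under 0.05, with a smallest value of 0.829. On the recovered reads DESeq2 gave 54 a raw p under 0.05, against 16.8% of the 1805 entries and 5.42% of all ncRNAs. It gave 23 an adjusted p under 0.05, against 4.6% of the 1759 of these entries and 2.47% of the 4573 ncRNAs that it adjusted. edgeR's quasi-likelihood test gave 110 a raw p under 0.05, against 23.4% of the 1805 and 15.1% of all ncRNAs, and 88 an adjusted p under 0.05, against 11.1% and 2.1%. By exact permutation over the 12870 ways to split the 16 libraries, 39 had a p under 0.05, against 8.92% of the 1805 entries and 3.96% of all ncRNAs. Without PS19 replicate 3, limma called 26 of the 134 (19.4%), all higher in PS19, against 7.31% of the 1805 entries and 3.97% of all ncRNAs, and the median log2 fold change was 0.76. The names of the PS19 libraries share an initial letter with 2 of the 8 WT names, while the other 6 WT names begin with other letters. Among the 10 libraries with the shared letter, 2 entries were called, both of the miR-8109 group, lower in PS19 and not among the 59, against 2.33% of the 1805 entries and 5.66% of all ncRNAs. The median log2 fold change there was 1.58.

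The direction was counted for each pattern. Of the 111 entries highest in PS19 replicate 3, 54 were called, all higher, beside 10.9% of the 1805 entries called in either direction. Being highest in a PS19 library largely fixed that direction. Without that library 26 of the 111 were called, beside 7.31% of the 1805 entries. For 62 of the 111 the mean of the other 15 libraries was under 10, so they would not meet the minimum mean without it. Of the 18 that kept their twin, 4 were called, beside the same 10.9%: circ_0014158 higher, and the 3 entries of miR-744-5p, which have nearly the same read counts, lower. Without PS19 replicate 3, or with library totals as scaling, 0 of the 18 were called. All 15 with a miRNA twin had a log2 fold change below 0 (-1.04 to -0.33), and the 3 with a tRNA-Ala twin had one above 0 (0.71 to 1.97). The direction of the miRNA set depended on scaling. With size factors from miRNAs only, 7 of the 15 were above 0 and none was called, while the median of all ncRNAs moved from -0.01 to 0.18. With those factors the 3 with a tRNA-Ala twin were all called higher (1.28 to 2.52), beside 767 of all 15159 ncRNAs called higher. circ_0014158, highest in PS19 replicate 3, is counted in both the 111 and the 18. The difference between the sets was not tested.

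circ_0003235 had 65.2 to 593 normalized counts in PS19, with a median of 260, and 247 to 679 in WT, with a median of 445. The ranges overlapped. The log2 fold change was -1.03, with a standard error of 0.50 (raw limma p = 0.0468, exact permutation p = 0.0452, limma adjusted p = 0.829). miR-744-5p itself had -1.04. The 2 other entries of this miRNA had -1.03 and -1.02, and their read counts are nearly the same. circ_0003235 stayed under a raw p of 0.05 in 8 of the 16 fits that left out 1 library. Its raw p was 0.122 in DESeq2 and 0.191 in edgeR, and with either tool, or with library totals as scaling, 0 of the 15 entries with a steady miRNA twin were called.

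Other members with a steady twin gave values as close to those of the twin. circ_0010180 had a log2 fold change of -1.04 (exact permutation p = 0.150) and miR-10b-5p -1.04. circ_0016169 had -0.43 (exact permutation p = 0.385) and let-7f-5p -0.43, circ_0008144 -0.57 (exact permutation p = 0.200) and miR-128-3p -0.57, and circ_0016081 -0.93 (exact permutation p = 0.0796) and miR-361-3p -0.97. circ_0014158 had 10.2 to 832.5 normalized counts in PS19 (median 148) and 1.27 to 110.0 in WT (median 54.4), and its log2 fold change was 1.97, with a standard error of 0.81 (raw limma p = 0.0218, exact permutation p = 0.0623). It was 1.62 without PS19 replicate 3 and 1.66 with library totals as scaling, with a raw limma p of 0.0976 and 0.0829, and the raw p was under 0.05 in 7 of the 16 fits that left out 1 library. It was called with DESeq2 (2.43, adjusted p = 0.0408), with edgeR (1.87) and with factors from miRNAs only (2.52).

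The 8 members with the smallest limma p, 1 per set of identical values, were all of the miR-5112 and tRNA-Cys groups. circ_0004172 had 3.68 to 403 normalized counts in PS19 (median 14.7) and 0 to 13.9 in WT (median 0.694). Its log2 fold change of 2.95 became 2.33 without PS19 replicate 3. The mean of its other 15 libraries was under 10, so it met the minimum mean only through that library. circ_0005021 had 10.1 to 7819 in PS19 (median 95.8) and 0 to 27.6 in WT (median 7.32), and its log2 fold change was 3.65, with a standard error of 0.95 (raw limma p = 0.000692, exact permutation p = 0.00404). It was 2.73 without PS19 replicate 3, and the raw p was under 0.05 in all 16 fits that left out 1 library. circ_0001327 and circ_0012470 had 3.28 and 3.07, and circ_0005019 had 3.06. circ_0010405, circ_0001164 and circ_0010404, which differed by 3 reads at most in their totals of 2452, 2453 and 2455, had 3.26, 3.25 and 3.25. The PS19 and WT values of all 8 overlapped. Among the 10 libraries with the shared letter, all 8 were higher in PS19 (log2 fold changes from 2.34 to 3.59), and 0 of 8 had a raw p under 0.05 in limma. Those 10 include all 8 PS19 libraries, with replicate 3, in which each of these entries was highest. The direction there was thus largely fixed in advance and is no separate support.

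The best-twin entries were selected to follow the members, so that their values restate the selection. tRNA-Cys-GCA-15-1 had a log2 fold change of 2.90, mir-5108 2.64, miR-5112 1.93 and tRNA-Ile-AAT-1-1 1.78, and without PS19 replicate 3 these were 2.10, 1.96, 1.16 and 1.15. By group, limma called 25 of 52 entries of miR-5112, 13 of 23 of tRNA-Cys, 7 of 10 of tRNA-Ile, 4 of 7 of tRNA-Ala and 5 of 18 of miR-5108, all higher in PS19, beside 9.31% of the 1805 entries called higher. Without PS19 replicate 3 these were 13, 5, 5, 2 and 1, all higher in PS19, beside 110 of the 1805 entries called higher. The 1 of 18 of miR-5108 was not above that share. Entries of a group can have nearly the same reads, as circ_0010404 and circ_0010405 of the miR-5112 group do. The counts by group, with or without that library, are therefore not of separate entries. Whether any group exceeded the share of the 1805 was not tested. The fold changes of every group with and without that library are in the plot by twin group.

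**Figure D5:**
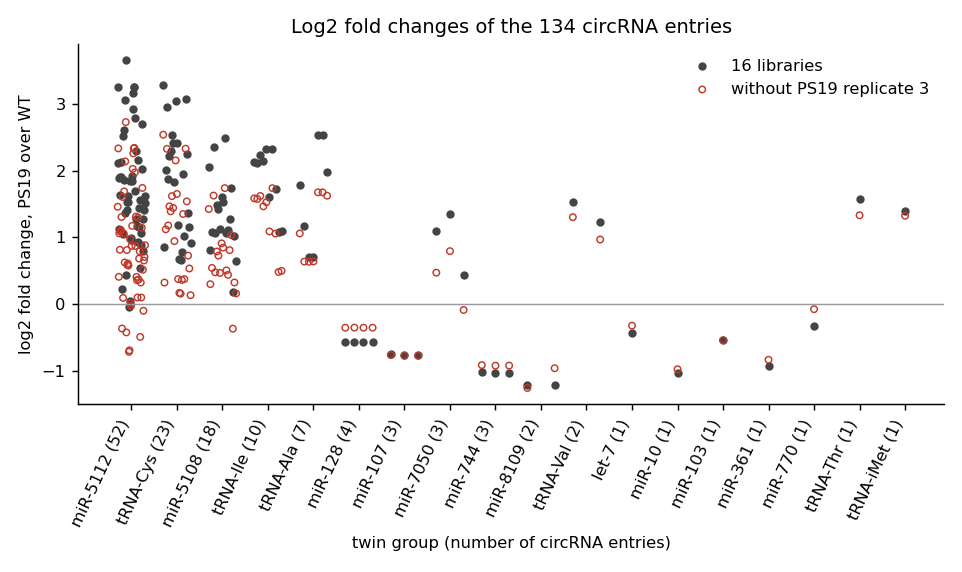
Log2 fold change of PS19 over WT on log2(normalized count + 1) (y axis) for each of the 134 circRNA entries, by twin group (x axis, number of entries in brackets), with all 16 libraries (filled) and without PS19 replicate 3 (open). The tRNA-Cys, tRNA-Ile and miR-5112 entries move down without that library, and the miR-107 and miR-103 entries stay in place below 0.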

How the data were processed

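Small RNA of pEVs was sequenced from 8 PS19 and 8 WT mice. The authors aligned reads with STAR 2.5.3a to mm10 (per the submitters' processing notes), assigned them with COMPSRA and divided counts by DESeq2 1.42.1 size factors; these normalized counts are the deposited signal values. The deposited fold changes and p-values of the authors' own comparison were not used. Dividing by the smallest positive value of each library gave whole reads for 100% of values (tolerance 1e-06).

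The members and gene lists were chosen with earlier results of these data known. Named entries were the 3 highest by mean in the 3 largest twin groups, the highest of each other group of at least 2, the 8 with the smallest limma p, and those with the highest and lowest r; the entries that kept their twin were added after the values were seen. limma 3.58.1 (trend) was run on log2(normalized count + 1) over all 15159 ncRNAs without a filter, with two-sided exact permutation tests. DESeq2 1.42.0 and edgeR 4.0.16 on recovered reads were alternatives, with other scalings, filters, pseudocounts, a replicate block and libraries left out. On simulated data of 14541 ncRNAs, 76.5% of those changed by a log2 fold change of 2, and 4.73% of the others, passed a raw p of 0.05 in limma. The limit from 0 reads covers counting error only. Python 3.11.15 and R 4.3.3 were used. tRNA and circRNA sequences were not analysed here.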

Additional observations from a re-analysis of the deposited data

Results flagged for a closer look

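Within a genotype, a value was singled out where the gap between the highest or lowest library and its neighbour, as a share of the whole range of the 8, was above Dixon's 95% critical value for 8 values. Over the named circRNA entries and their best twins, 108 groups of 8 with a range above 0 were tested and 49 met this. Chance would give about 1 in 20 in unselected values, but these members and twins were selected by an r without a log and a minimum mean, both of which favour entries high in 1 library, so the 49 are a description and not to be read against that rate. The groups are not separate, because members and twins share their values.

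In PS19 replicate 3, 26 values met it. For circRNA entries the gap as a share of the range was circ_0011099 0.984, circ_0004037 0.952, circ_0005019 0.982, circ_0006570 0.933, circ_0005119 0.936, circ_0005116 0.936, circ_0002516 0.928, circ_0002519 0.925, circ_0008373 0.862 and circ_0013556 0.824. It was also high for circ_0007381 0.92, circ_0013521 0.886, circ_0004172 0.944, circ_0005021 0.983, circ_0001327 0.929, circ_0012470 0.93, circ_0010405 0.962, circ_0001164 0.962, circ_0010404 0.962 and circ_0002976 0.867. For the twin entries it was tRNA-Ala-TGC-5-1 0.908, tRNA-Cys-GCA-15-1 0.932, tRNA-Ile-AAT-1-1 0.76, miR-5112 0.963, mir-5108 0.945 and mir-7050 0.914. This library also had few red blood cell, liver and neuronal miRNAs, as given above, and the part of that difference in these values was not tested.

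In PS19 replicate 4, the gap as a share of the range was circ_0008144 0.618, circ_0001494 0.911, circ_0000075 0.619, tRNA-Val-AAC-5-1 0.991 and miR-128-3p 0.646. In PS19 replicate 6, the gap as a share of the range was circ_0003413 0.591, circ_0003415 0.612 and tRNA-Ala-TGC-8-1 0.605. In PS19 replicate 8, the gap as a share of the range was miR-8109 0.964. In WT replicate 4, the gap as a share of the range was circ_0005056 0.932 and miR-8109 0.998. In WT replicate 5, the gap as a share of the range was circ_0005019 0.608, circ_0008373 0.701, circ_0005021 0.538, circ_0001327 0.687, circ_0012470 0.687 and mir-5108 0.63. In WT replicate 6, the gap as a share of the range was circ_0004172 0.556. In WT replicate 7, the gap as a share of the range was circ_0008144 0.6, circ_0000075 0.6, circ_0003720 0.579, miR-128-3p 0.594 and miR-770-3p 0.591. In PS19 replicate 4, 1 read was worth 3.83 normalized counts, the most of any library, and its part in these values was not tested.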

How the results depend on the processing

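The number of circRNA entries with a twin, 134, was 18 with r on the log2 scale, 255 at an r of at least 0.95 and 57 at a stricter limit of r. It was 30 without the highest library of each entry, 85 in the WT libraries only and 188 in the PS19 libraries only. On recovered reads it was 104. With snoRNA and other small RNA genes as partners it was 21, and with libraries left out 1 at a time it ran from 45 (without PS19 replicate 3) to 157 (without PS19 replicate 1). The number called, 59, was 110 with edgeR, 30 with library totals as scaling, 2 among the libraries with the PS19 letter and 35 without the 1 library under 50% of the median total (WT replicate 2). With 1 library left out it ran from 26 (without PS19 replicate 3) to 60, and it was at most 39 without PS19 replicate 1, 7 or 8 or any 1 WT library. The cause was not tested.

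With size factors from miRNAs only, the log2 fold change turned to 0.023 for circ_0008144, 0.022 for circ_0000075, 0.16 for circ_0016169, 0.049 for circ_0002999 and 0.22 for circ_0003720, which had 0.59 among the libraries with the PS19 letter. With 1 library left out, that of circ_0013521 ran from -0.090 (without PS19 replicate 3) to 0.71. Replicate numbers name different mice, and same-numbered libraries did not deviate together in every pair (correlations of -0.18 to 0.47), so they share only a number. With the replicate block 61 entries were called, 54 of them among the 59. Depth limits entries such as miR-5112, with 130 reads in all.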
